A study of Panax ginseng with 12 samples.

Results

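The delta-12 fatty acid desaturase rows are 48 of the 44953 assembled genes in a table of RNA levels from cultured Panax ginseng tissue. The tissue is embryogenic callus, a mass of plant cells that can form somatic embryos. A row was a member where its Swiss-Prot description or its protein annotation named a delta-12 desaturase or an omega-6 fatty acid desaturase. Both fields matched in 34 rows, the Swiss-Prot description alone in 13 and the annotation alone in 1. The rule reads annotation text only, and it was chosen with earlier results of these data known.

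Cold calli were kept at 5 °C and control calli at 20 °C, each for 2, 4 or 6 days. With 2 libraries of total RNA for every temperature and day, there were 6 groups and 12 libraries in all. Libraries are written by temperature, day and replicate number, so that cold d2r1 is replicate 1 of the cold calli at day 2. The labels name no cultivar, line or further treatment. They do not say whether replicates were separate cultures, so p-values may measure technical spread only. In RNA of whole calli, fewer cells of a type and less RNA per cell cannot be told apart.

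FAD2 enzymes sit in the membrane of the endoplasmic reticulum and turn oleic acid into linoleic acid while it is bound to phosphatidylcholine, with electrons passed on by cytochrome b5. FAD6 does the same work in the plastid, and omega-3 desaturases then make linolenic acid. Polyunsaturated membrane lipids stay fluid at low temperature, and Arabidopsis plants without FAD2 tolerate cold poorly. The FAD2 family of plants also holds diverged enzymes, among them acetylenases, which make triple bonds, and conjugases, which make conjugated fatty acids. Ivy, which belongs to the ginseng family, and parsley, of the related carrot family, make polyacetylenes of the falcarinol type from such acetylenic acids, as does ginseng itself.

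By annotation, 34 rows were called FAD2-like, all after carrot proteins. Another 9 rows were named after an ivy (Hedera helix) delta-12 acetylenase, and 4 after a parsley (Petroselinum crispum) protein described only as induced by a fungal elicitor. The remaining row, DN29908_c1_g4 of 1671 bases, was named as the chloroplastic omega-6 desaturase, the FAD6 type. (All identifiers begin with TRINITY_, which is left out here.) The best Swiss-Prot hit was tung tree (Vernicia fordii) FAD2 for 24 rows and pot marigold (Calendula officinalis) FAD2 for 12. A soybean endoplasmic reticulum isozyme was the hit for 6 rows (isozyme 2 for 5, isozyme 1 for 1), and a delta-12 dehydrogenase of Crepis alpina for 3. Pot marigold conjugase FAC2, Arabidopsis FAD2 and a chloroplastic enzyme of Brassica napus were the hit of 1 row each.

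The rows are pieces of an assembly, and they are short. Their lengths ran from 219 to 1999 bases with a median of 617.5, against a median of 750 for all rows of the table, and 12 rows reached 1000 bases while 9 were under 300. They came from 20 assembly components, the clusters in which Trinity groups related contigs, and 39 of the 48 shared a component with another member. How far rows are copies, alleles or fragments of the same transcript was not tested, because no sequences were used here. Reads of near-identical rows may have been divided between them, so the difference of a single row is uncertain in this sense, and sums per library are given beside the rows. Levels are in TPM, an abundance scaled for the length of the row and for the total of the library.

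All 48 rows passed the filter of at least 1 TPM in at least 2 libraries. The rows differed widely in level: 14 averaged at least 100 TPM over the 12 libraries and 12 averaged under 10 TPM. A pair of libraries stood apart for these rows. In cold d2r1, 19 rows had their highest value, and in control d6r2 another 15, which makes 34 of 48. At the low end, 30 rows had their lowest value in a cold day 6 library. Over all 44600 genes tested, the median correlation of a library with the rest of its arm (log2 scale, Pearson's r) was lowest in cold d2r3 with 0.788, followed by cold d6r3 with 0.828, and highest in cold d6r2 with 0.888.

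Summed over the 48 rows, the level was 6636 and 3521 TPM in the cold libraries of day 2, 4033 and 5326 TPM at day 4, and 2210 and 1687 TPM at day 6. In the control libraries it was 3862 and 8201 TPM at day 2, 3128 and 4291 TPM at day 4, and 9585 and 3824 TPM at day 6. The sums thus overlapped between temperatures, and only at day 6 did both cold libraries lie under both controls. The mean was 3902 ± 1867 TPM in cold calli and 5482 ± 2704 TPM in control calli (SD, n = 6 each), a log2 ratio of -0.49, which was smaller than the spread within the arms. The ratio was -0.26 without control d6r2 and -0.71 without cold d2r1, and it was -0.47 without both. It was -0.27 without cold d2r3 and cold d6r3. Without day 6 the means were 4879 TPM in cold and 4870 TPM in control calli. The 48 rows, called the family here, made up between 0.181% and 1.04% of a library's TPM. The orthology (KO) entry K10256 was given to 46 of them and to 8 further rows, which the text rule left out of these sums.

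**Figure D1:**
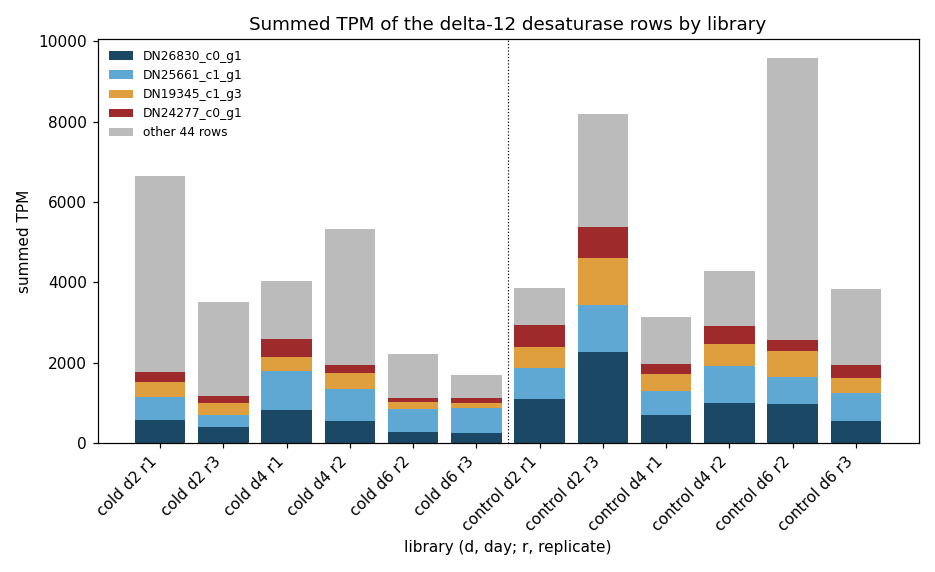
Summed TPM of the 48 rows in each of the 12 libraries, cold on the left and control on the right. The 4 most abundant rows are coloured and the other 44 are grey. The lowest bars are the cold day 6 libraries with 2210 and 1687 TPM, and the highest is control d6r2 with 9585 TPM.

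The sum was split unevenly. The rows DN26830_c0_g1, DN25661_c1_g1 and DN19345_c1_g3 together held between 23% and 61.9% of it. The FAD2-like rows summed to 2473 ± 1212 TPM in cold and 3168 ± 1752 TPM in control calli, and the ivy acetylenase rows to 1081 ± 540 TPM in cold and 1807 ± 831 TPM in control calli (SD, n = 6 each). The parsley elicitor rows summed to 340 ± 212 TPM in cold and 499 ± 497 TPM in control calli. Each of these 3 classes overlapped between the arms. By length, rows of 1000 bases or more summed to 1307 ± 492 TPM in cold and 1635 ± 601 TPM in control calli, those of at least 500 but under 1000 bases to 1539 ± 838 TPM in cold and 2259 ± 1118 TPM in control calli, and those under 500 bases to 1056 ± 581 TPM in cold and 1588 ± 1172 TPM in control calli. These sums overlapped as well.

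Whether cold shifted a row over all 3 days was tested as the mean of the daily differences. Of the 48 rows, 6 rose and 5 fell in cold calli, and 37 did not pass (limma, Benjamini-Hochberg over all genes tested, false discovery rate 0.05). That is 22.9% of the rows, near the 23.3% called among all 44600 genes tested (11.3% higher and 12% lower). The median log2 difference of the 48 rows was 0.04, against -0.05 for all genes, and 24 rows lay on each side of 0. The family thus showed no common direction in this mean over days, in which opposite daily directions can cancel. The 5 rows that fell averaged between 99.5 and 1091 TPM in control calli, and the 6 that rose between 1.0 and 20.8 TPM. Control levels entered the test that picked these rows, so this contrast is a description only. Without day 6, 15 rows rose and none fell (limma, 14.8% of all genes called), and the 6 rises over all days were among them, with log2 differences from 2.28 to 3.40. Without cold d2r3 and cold d6r3, 8 rows rose and none fell (18.8% of all genes called), and without cold d2r1 and control d6r2, 2 rose and 4 fell (13.4% of all genes called). In no row were the 6 cold libraries all above or all below the 6 controls, which held for 7.11% of all genes (cold higher in 3.27% and lower in 3.84%).

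The rows that fell were led by the most abundant member. DN26830_c0_g1 (778 bases, named FAD2 by its tung tree hit and annotated as an ivy acetylenase) had 564 and 395 TPM in the cold libraries of day 2, 827 and 534 TPM at day 4, and 262 and 241 TPM at day 6. The control libraries had 1091 and 2268 TPM at day 2, 684 and 997 TPM at day 4, and 958 and 548 TPM at day 6. Cold libraries were lower on days 2 and 6, and on day 4 the higher cold library lay between the controls. The means were 470 ± 220 TPM in cold and 1091 ± 612 TPM in control calli (SD, n = 6 each), with a log2 difference of -1.19 (SE 0.28; limma, adjusted p = 0.0134). The call held in 11 of 12 fits that left out a library and was missed without cold d4r2 (adjusted p = 0.0503).

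DN19345_c1_g3 (797 bases, FAD2-like) had 389 and 291 TPM in the cold libraries of day 2, 356 and 387 TPM at day 4, and 172 and 133 TPM at day 6. In control calli it had 537 and 1173 TPM, 409 and 549 TPM, and 652 and 372 TPM on the same days. On each day both cold libraries were under both controls, and the arms touched only because cold d2r1 and cold d4r2 exceeded control d6r3. Its log2 difference was -1.09 (SE 0.26; limma, adjusted p = 0.0128).

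DN24277_c0_g1 (374 bases, ivy acetylenase) ranged from 119 to 436 TPM in cold libraries with a median of 192 TPM, and from 264 to 774 TPM in control libraries with a median of 384 TPM. Only cold d4r1, the highest cold value, reached into the control range. The log2 difference was -1.03 (SE 0.24; limma, adjusted p = 0.0135). Like DN19345_c1_g3, it kept its call in all 12 fits that left out a library. Without cold d2r3 and cold d6r3 the log2 difference was -1.09 for DN26830_c0_g1, -0.96 for DN19345_c1_g3 and -0.98 for DN24277_c0_g1, with adjusted p-values of 0.0609, 0.0639 and 0.057 in a limma fit of 10 libraries. Without day 6 the log2 differences were -1.02, -0.79 and -0.92, with adjusted p-values of 0.11, 0.138 and 0.102 in a limma fit of 8 libraries.

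Both other falls lay near the threshold. DN34643_c0_g2 (322 bases, hit soybean isozyme 2) ranged from 34.1 to 111 TPM in cold libraries (median 85.1) and from 46.5 to 476 TPM in control libraries (median 151). DN19595_c0_g2 (246 bases, hit soybean isozyme 1) ranged from 3.55 to 87.8 TPM in cold libraries (median 11.1) and from 23.1 to 370 TPM in control libraries (median 42.4). In both rows the highest value was control d6r2, and the arms overlapped. The log2 differences were -1.17 (SE 0.38; limma, adjusted p = 0.048) and -2.05 (SE 0.65; limma, adjusted p = 0.0419). Of the 12 fits that left out a library, DN34643_c0_g2 kept its call in 2 (without control d2r1 or control d6r3) and DN19595_c0_g2 in 3 (the same omissions and cold d2r1). The largest adjusted p was 0.12 without cold d4r1 for DN34643_c0_g2 and 0.108 without cold d2r3 for DN19595_c0_g2, and without control d6r2 the values were 0.114 for DN34643_c0_g2 and 0.0877 for DN19595_c0_g2 (limma). Without day 6 the log2 differences were -0.26 for DN34643_c0_g2 and -0.81 for DN19595_c0_g2. Summed, the 5 rows that fell held 27.6% of the family's TPM in cold calli and 44.5% in control calli. These rows were chosen by their fall in the same libraries, so the direction of this contrast too was fixed in advance.

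The 6 rows that rose were weakly expressed in control calli. DN21743_c1_g2 (489 bases) is the row whose best hit is FAC2, a conjugase of pot marigold seeds. It had 34.9 and 20.4 TPM in the cold libraries of day 2, 42.8 and 118 TPM at day 4, and 39.4 and 5.33 TPM at day 6. In control libraries it had 1.10 and 20.6 TPM at day 2, 1.17 and 2.27 TPM at day 4, and 19.6 and 2.08 TPM at day 6. The arms separated at day 4, where the lower cold library stood far over both controls, and overlapped on days 2 and 6. The log2 difference of 2.60 was the largest rise of the family (SE 0.67; limma, adjusted p = 0.019). It missed the threshold without cold d2r1, cold d4r2 or cold d6r2 (adjusted p = 0.0634 without the last).

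DN34643_c0_g5 (458 bases, FAD2-like) showed an early rise. It had 34.1 and 18.5 TPM in the cold libraries of day 2, 1.57 and 2.69 TPM at day 4, and 0.84 and 0.61 TPM at day 6. In control libraries it had 0.37 and 3.37 TPM at day 2, 0.48 and 0.24 TPM at day 4, and 0.71 and 0.83 TPM at day 6. Both cold libraries were over both controls on days 2 and 4, and by day 6 all 4 libraries were under 1 TPM. The log2 difference was 1.52 (SE 0.35; limma, adjusted p = 0.0125), the call held in all 12 fits that left out a library, and it was missed when cold d2r1 and control d6r2 were left out together (limma, adjusted p = 0.0683).

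Rows of the component DN17423_c0 accounted for 2 further rises. DN17423_c0_g7 (254 bases, tung tree FAD2 hit) ranged from 3.86 to 40.7 TPM in cold libraries (median 13.8) and from 0.97 to 10.8 TPM in control libraries (median 2.31). DN17423_c0_g6 (716 bases, pot marigold FAD2 hit) ranged from 0.54 to 26.5 TPM in cold libraries (median 6.92) and from 0.24 to 2.96 TPM in control libraries (median 0.715). The libraries cold d2r1 and cold d4r2 held the highest values of both rows, and the arms overlapped at their low cold ends. The log2 differences were 1.72 (SE 0.43; limma, adjusted p = 0.0171) and 2.00 (SE 0.53; limma, adjusted p = 0.0212).

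DN24277_c0_g6 (794 bases, pot marigold FAD2 hit) ranged from 0.73 to 36.5 TPM in cold libraries (median 14.9) and from 0.87 to 4.92 TPM in control libraries (median 1.56). DN14928_c0_g3 (460 bases, ivy acetylenase) ranged from 14.6 to 124 TPM in cold libraries (median 37.5) and from 5.89 to 39.4 TPM in control libraries (median 20.9). None of their cold day 6 libraries exceeded the control range, and the high values came from day 2 and day 4. The log2 differences were 1.74 (SE 0.45; limma, adjusted p = 0.0199) and 1.26 (SE 0.41; limma, adjusted p = 0.0471). Summed, the 6 rows that rose reached 155 ± 116 TPM in cold and 37.6 ± 22.9 TPM in control calli (SD, n = 6 each), a small part of the family's sum. They were chosen by their rise in the same libraries, so the direction of this contrast was fixed in advance.

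Most of these calls depended on single libraries, mainly cold ones. Out of the 12 fits that left out a library, DN17423_c0_g7 kept its call in 10, DN21743_c1_g2 and DN17423_c0_g6 in 9 each, DN24277_c0_g6 in 8 and DN14928_c0_g3 in 4. The largest adjusted p-values were 0.0603 for DN17423_c0_g7 and 0.135 for DN14928_c0_g3 without cold d4r2, and 0.0713 for DN17423_c0_g6 and 0.0662 for DN24277_c0_g6 without cold d6r2 (limma). DN17423_c0_g7 also missed the threshold without cold d6r2 (0.0594). DN17423_c0_g6 did so too without cold d2r1 (0.0593) or cold d4r2 (0.0657). For DN24277_c0_g6 the others were cold d2r1 (0.0504), cold d4r2 (0.0544) and control d4r2 (0.0504). DN14928_c0_g3 kept its call only without cold d2r3, cold d4r1, control d2r1 or control d4r1. All 11 called rows kept their direction in every one of these fits. The number of called rows was 3 without cold d4r2 (12.9% of all genes called), 4 without cold d6r2 (12.5%), 7 without cold d2r1 (19.9%) and 7 without control d4r2 (15.1%), and the share of all genes with every library was 23.3%.

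**Figure D2:**
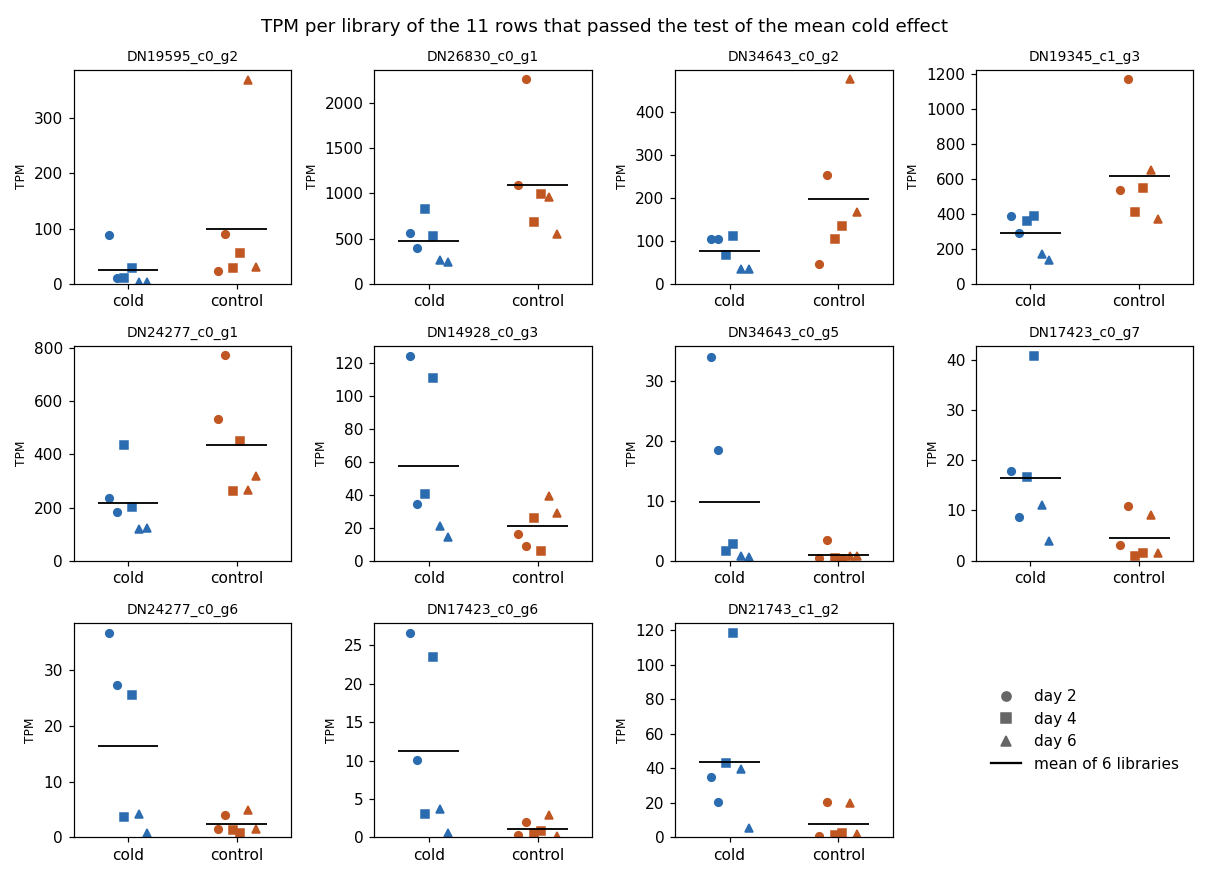
TPM in each library of the 11 rows that passed the test of the mean effect, cold left and control right in each panel. Circles, squares and triangles are days 2, 4 and 6, and bars are the means of 6 libraries. DN26830_c0_g1 averaged 470 TPM in cold and 1091 TPM in control calli, DN21743_c1_g2 43.5 TPM in cold and 7.81 TPM in control calli, and the arms overlap in every panel.

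Among the abundant rows that did not pass, DN25661_c1_g1 (1196 bases, FAD2-like, tung tree FAD2 hit) was the most abundant member in cold calli. It had 576 and 296 TPM in the cold libraries of day 2, 963 and 813 TPM at day 4, and 576 and 619 TPM at day 6. The control libraries had 762 and 1171 TPM, 618 and 926 TPM, and 686 and 707 TPM on the same days. The arms overlapped, and the log2 difference was -0.40 (SE 0.26; limma, adjusted p = 0.275). DN27778_c0_g1 (1743 bases) and DN27778_c0_g2 (1791 bases) are long rows of the same component. They averaged 94.8 ± 55.2 and 157 ± 87.4 TPM in cold calli and 149 ± 69.2 and 130 ± 45.2 TPM in control calli (SD, n = 6 each). Their log2 differences were -0.74 (SE 0.25; limma, adjusted p = 0.0526) and 0.14 (SE 0.25; limma, adjusted p = 0.714).

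The chloroplastic row was steady and low. DN29908_c1_g4 had 6.64 and 11.4 TPM in the cold libraries of day 2, 6.85 and 5.79 TPM at day 4, and 5.13 and 5.37 TPM at day 6. In control libraries it had 8.27 and 7.82 TPM, 8.05 and 9.06 TPM, and 5.85 and 6.54 TPM on the same days. The arms overlapped, and its log2 difference was -0.16 (SE 0.20; limma, adjusted p = 0.573).

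None of the 12 rows of 1000 bases or more was called for the mean effect. Among the 15 of at least 500 but under 1000 bases 2 rose and 2 fell, and among the 21 shorter ones 4 rose and 3 fell. Over all genes 23.3% were called, and a difference between length classes was not tested. The longest row, DN35604_c2_g4 of 1999 bases, averaged 26.8 ± 10.1 TPM in cold and 31.3 ± 10.5 TPM in control calli, with a log2 difference of -0.26. DN34643_c0_g1 (1829 bases) averaged 34.7 ± 20.9 TPM in cold and 87.2 ± 92.2 TPM in control calli (-0.98; limma, adjusted p = 0.0893). DN35604_c1_g1 (1145 bases) averaged 69.0 ± 26.8 TPM in cold and 57.3 ± 18.0 TPM in control calli, with a log2 difference of 0.23. Of the other long FAD2-like rows, DN23638_c0_g2 averaged 83.5 TPM in cold and 186 TPM in control calli (-0.97). DN17483_c1_g1 averaged 22.4 TPM in cold and 38.8 TPM in control calli (-0.90), and DN19595_c0_g1 89.3 TPM in cold and 19.3 TPM in control calli (1.45; limma, adjusted p = 0.0549). These long rows thus had differences on both sides of 0.

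Of the ivy acetylenase rows not yet described, DN17423_c0_g4 averaged 158 ± 104 TPM in cold and 72.6 ± 47.3 TPM in control calli (1.07; limma, adjusted p = 0.0506). DN26830_c0_g3 averaged 61.8 TPM in cold and 29.5 TPM in control calli (1.0), DN24611_c0_g4 23.5 TPM in cold and 17.8 TPM in control calli (0.44), and DN23062_c1_g4 20.1 TPM in cold and 18.3 TPM in control calli (0.20). DN24611_c0_g1 averaged 58.2 TPM in cold and 99.9 TPM in control calli (-0.80) and DN21743_c1_g1 14.4 TPM in cold and 22.7 TPM in control calli (-0.65). In all, 1 of the 9 acetylenase rows rose, 2 fell and 6 did not pass, beside 23.3% of all genes called. The 4 parsley elicitor rows were not called: DN16180_c1_g2 averaged 130 ± 55.8 TPM in cold and 380 ± 380 TPM in control calli (-1.13; limma, adjusted p = 0.0738), with 1113 TPM in control d6r2. The other three, DN24277_c0_g2 (0.74), DN24277_c0_g7 (0.88) and DN26830_c0_g2 (-0.70), averaged 105, 105 and 1.25 TPM in cold and 67.6, 48.4 and 3.34 TPM in control calli.

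The remaining FAD2-like rows were not called. Positive log2 differences were found for DN24277_c0_g3 (229 TPM in cold and 115 TPM in control calli, 0.98), DN19345_c1_g1 (179 TPM in cold and 57.7 TPM in control calli, 1.27), DN14770_c0_g2 (39.8 TPM in cold and 13.6 TPM in control calli, 0.96) and DN17423_c0_g5 (7.20 TPM in cold and 1.36 TPM in control calli, 1.13). They were also positive for DN14770_c0_g1 (23.6 TPM in cold and 18.1 TPM in control calli, 0.14), DN24277_c0_g4 (4.17 TPM in cold and 1.56 TPM in control calli, 0.53), DN14770_c0_g3 (3.35 TPM in cold and 1.80 TPM in control calli, 0.69), DN34643_c0_g8 (3.09 TPM in cold and 1.35 TPM in control calli, 0.46) and DN24611_c0_g2 (3.01 TPM in cold and 0.418 TPM in control calli, 0.82). The lowest difference of the family was that of DN14770_c0_g5 (16.2 ± 19.7 TPM in cold and 156 ± 257 TPM in control calli, -2.36, SE 0.84), and it did not pass (limma, adjusted p = 0.062). The library control d6r2 alone had 675 TPM of it. Negative differences were found for DN17423_c0_g3 (91.2 TPM in cold and 170 TPM in control calli, -0.69), DN34643_c0_g4 (2.95 TPM in cold and 5.89 TPM in control calli, -0.43), DN34643_c0_g6 (15.4 TPM in cold and 16.9 TPM in control calli, -0.26), DN17423_c1_g1 (110 TPM in cold and 114 TPM in control calli, -0.23), DN14770_c0_g4 (15.5 TPM in cold and 34.7 TPM in control calli, -0.14) and DN34643_c0_g3 (27.6 TPM in cold and 20.7 TPM in control calli, -0.06). In DN34643_c0_g3 the mean TPM and the mean of logs pointed opposite ways. DN17483_c1_g2 was listed at 0 in 9 of the 12 libraries and had 0.62 TPM in cold d2r1, 2.18 TPM in control d4r2 and 7.18 TPM in control d6r2.

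**Figure D3:**
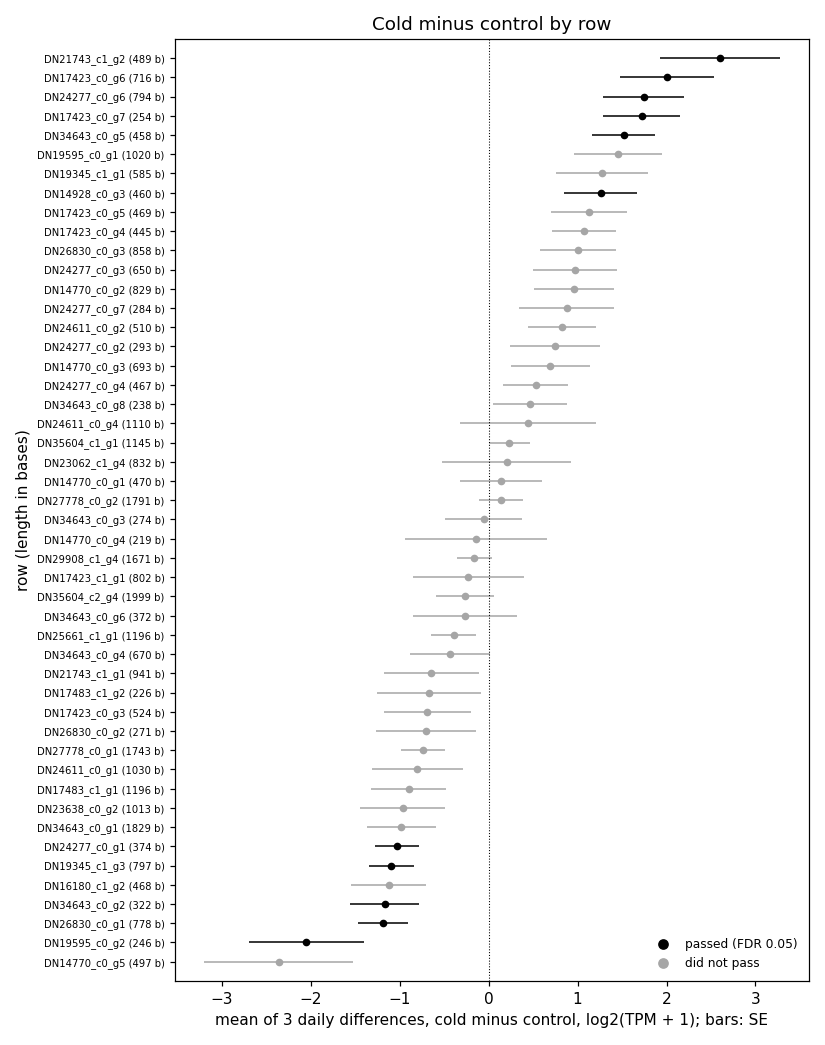
Log2 difference, cold minus control, of each of the 48 rows as the mean of 3 daily differences on the log2(TPM + 1) scale, with bars of 1 SE and lengths in bases. Black marks the 11 rows that passed and grey the 37 that did not. The points run from -2.36 for DN14770_c0_g5 to 2.60 for DN21743_c1_g2, with 24 on each side of 0.

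Counted by row, with each row weighing the same, the family pointed in different directions from day to day. At day 2 the log2 difference was positive in 34 of 48 rows with a median of 0.84, and at day 4 in 35 rows with a median of 0.70. At day 6 it was positive in 5 rows, and the median was -1.60. The day 2 count was 29 positive and 17 negative without cold d2r1, and 28 positive and 20 negative without control d2r1. It was 38 positive and 9 negative without cold d2r3, and 40 positive and 8 negative without control d2r3. Over all genes the medians were 0.00, -0.16 and -0.03, and 50.2%, 43.2% and 47.7% of differences were positive on the 3 days. In 26 of the 48 rows the difference was positive on days 2 and 4 and negative on day 6. The summed level gave log2 ratios of cold over control of -0.25 at day 2, 0.34 at day 4 and -1.78 at day 6. At day 2 the sum thus pointed opposite to the row count. The 4 most abundant rows were all lower in cold at day 2: DN26830_c0_g1 (-1.73), DN25661_c1_g1 (-1.19), DN19345_c1_g3 (-1.24) and DN24277_c0_g1 (-1.63).

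Few rows passed on a single day. At day 2 the only call was DN34643_c0_g5 (3.42, SE 0.61; limma, adjusted p = 0.0232), beside 1.76% of all genes (1.48% higher and 0.287% lower). It was missed without cold d2r1, cold d2r3 or control d2r1, omissions that also lowered the number of all genes called at day 2. At day 4, 3 rows rose, beside 8.38% of all genes (4.07% higher and 4.3% lower): DN21743_c1_g2 (4.76, SE 1.16; limma, adjusted p = 0.033), DN17423_c0_g7 (3.60, SE 0.75; limma, adjusted p = 0.0202) and DN17423_c0_g4 (2.65, SE 0.62; limma, adjusted p = 0.0293). DN17423_c0_g4, an ivy acetylenase row, had 163 and 281 TPM in the cold libraries of day 4 and 56.4 and 19.5 TPM in the control libraries. Without any 1 of the 4 libraries of day 4, a group holds a single library. Calls at that day were then lost in these rows and became far fewer over all genes.

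At day 6 no row passed, beside 0.484% of all genes (0.318% higher and 0.166% lower). The smallest adjusted p was 0.0635, for DN27778_c0_g1 (-2.06, SE 0.43; limma). An unadjusted p under 0.05 was reached by 22 of the 48 rows (limma), against 17.5% of all genes. That count became smaller without control d6r2 or cold d6r3 and larger without control d6r3. The rows with differences below -3 at day 6 were DN14770_c0_g5 (-5.21), DN19595_c0_g2 (-4.53), DN14770_c0_g4 (-4.24), DN23638_c0_g2 (-3.30), DN34643_c0_g1 (-3.15), DN16180_c1_g2 (-3.06) and DN17423_c1_g1 (-3.03), with limma adjusted p-values from 0.0662 to 0.191. In all 7 the library control d6r2 lay far above control d6r3, as with 675 and 33.9 TPM for DN14770_c0_g5, 370 and 30.0 TPM for DN19595_c0_g2, and 1113 and 389 TPM for DN16180_c1_g2.

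The order of the 4 libraries of a day was also counted, without a model and with no library left out. Both cold libraries lay over both controls in 16 rows at day 2 (23.5% of all genes), in 23 rows at day 4 (25.9%) and in 2 rows at day 6 (22.8%). Both lay under both controls in 5 rows at day 2 (21.2%), in 4 rows at day 4 (36%) and in 32 rows at day 6 (25.5%). The 32 rows of day 6 included the chloroplastic row, 21 of 34 FAD2-like rows, 7 of 9 acetylenase rows and 3 of 4 parsley elicitor rows. The 2 rows with both cold libraries higher at day 6 were DN35604_c1_g1, with 65.7 and 58.8 TPM in cold and 33.1 and 49.7 TPM in control calli, and DN14770_c0_g3, with 3.83 and 6.70 TPM in cold and 0.25 and 2.04 TPM in control calli.

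**Figure D4:**
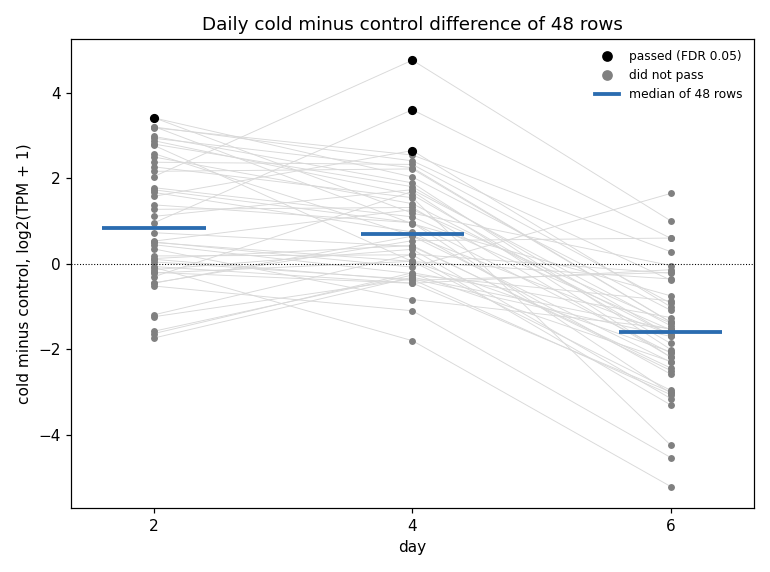
Log2 difference, cold minus control, of the 48 rows at days 2, 4 and 6, with a grey line for each row and blue bars for the medians. Black points are the rows that passed at that day, 1 at day 2 and 3 at day 4. The medians are 0.84, 0.70 and -1.60.

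A difference between days in the effect of cold was not established for any row. The test that the 3 daily differences are equal called 0 of 48 rows, beside 0.0157% of all genes, with a smallest adjusted p of 0.284 (limma). At an unadjusted p under 0.05 there were 28 rows, against 9.49% of all genes. That number was 34 with the replicate block. It became smaller without control d6r2 and larger without control d6r3, fits that leave a single library in a group. Without control d6r2 the day 6 difference was positive in 8 of 47 rows, and without cold d6r3 in 7. Without control d6r3 it was positive in 3 rows, and without cold d6r2 in 2.

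Within cold calli, DN34643_c0_g5 changed over the days (limma F test, adjusted p = 0.035), the only such row, beside 0.601% of all genes. An unadjusted p under 0.05 was reached by 27 rows, against 18.4% of all genes. That count was smaller without cold d6r3 and slightly larger without cold d2r3. The call of DN34643_c0_g5 was lost without any 1 of the cold libraries, and without control d4r1 or control d4r2. These omissions also lowered the number of all genes called. Within control calli no row changed over the days (limma, 0 called of all genes, 0%), and 5 rows had an unadjusted p under 0.05, against 3.67% of all genes. In summed level, the 4 cold libraries of days 2 and 4 had between 3521 and 6636 TPM, and both cold day 6 libraries had less.

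Most pairs of rows in the family were positively correlated across libraries, and pairs of other genes were not examined. Over the 12 libraries, Pearson's r of log2(TPM + 1) had a median of 0.51 over the 1128 pairs of rows, ran from -0.91 to 0.983, was over 0.8 in 186 pairs and below 0 in 181. Without cold d2r1 and control d6r2 the median was 0.435, with 112 pairs over 0.8 and 212 below 0. Points in such a pair share libraries, their depth and any reads divided between rows, so these values are descriptions. Pairs in the same component had a median of 0.552 (67 pairs, -0.852 to 0.982) and pairs from different components a median of 0.507 (1061 pairs). The highest r was between 2 acetylenase rows of different components, DN23062_c1_g4 and DN24611_c0_g4. The lowest was between DN14770_c0_g3 and DN24611_c0_g1, with DN14770_c0_g3 the row that was highest in cold d6r3.

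With DN26830_c0_g1, DN19345_c1_g3 had r = 0.964 and DN24277_c0_g1 had r = 0.947, and no other row passed 0.8 with it, while 13 of the other 47 were below 0. DN19345_c1_g3 also had r = 0.814 with DN19595_c0_g2 and 0.805 with DN27778_c0_g1. Some components held rows with opposite calls. In DN24277_c0, g1 fell and g6 rose (r = -0.257 between them), and the component's sum was 675 ± 392 TPM in cold and 670 ± 262 TPM in control calli (SD, n = 6 each). In DN34643_c0, g2 fell and g5 rose, and the sum was 169 ± 114 TPM in cold and 330 ± 286 TPM in control calli. Whether reads moved between such rows in quantification was not tested. For DN26830_c0 the sum of its 3 rows was 534 ± 251 TPM in cold and 1124 ± 602 TPM in control calli, and for DN17423_c0 with 5 rows it was 285 ± 162 TPM in cold and 249 ± 216 TPM in control calli.

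**Figure D5:**
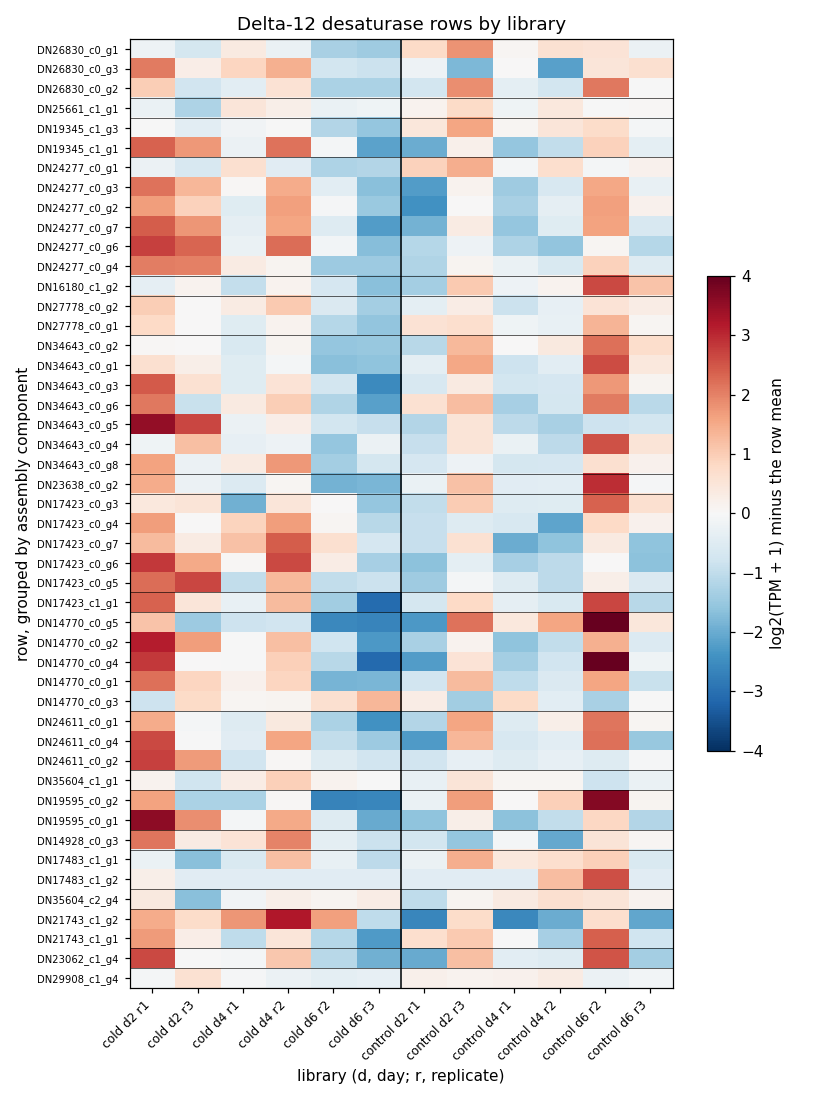
Log2(TPM + 1) minus the row's mean for the 48 rows (down) in the 12 libraries (across, cold left of the line and control right of it), grouped by assembly component. Red is above and blue below the row's mean, and 2 of 576 cells, which reach up to 4.74, exceed the colour range of 4. Most rows are red in cold d2r1 and control d6r2 and blue in the cold day 6 libraries.

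Outside the family, the named genes whose profile was most like that of DN26830_c0_g1 over the 12 libraries, among 16056 candidates, were POLYCHOME (PYM, a cell cycle regulator in Arabidopsis, r = 0.929), PAB2 (a poly(A)-binding protein, 0.924), a pentatricopeptide repeat protein (PCMP-E48, 0.911), tetraspanin-19 (TOM2AH3, 0.907) and the histone deacetylase HDT1 (0.905). PAB2 averaged 164 TPM in cold and 236 TPM in control calli and HDT1 5.98 TPM in cold and 15.0 TPM in control calli. These values are the highest of many and carry no test.

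Upstream of FAD2, the soluble acyl-ACP desaturases make oleic acid in the plastid. Of 4 rows, 1 fell (DN17004_c0_g2, 56.9 ± 10.4 TPM in cold and 86.0 ± 17.8 TPM in control calli, -0.59; limma, adjusted p = 0.0177). The most abundant, DN23057_c0_g1, averaged 129 ± 34.5 TPM in cold and 136 ± 23.3 TPM in control calli and did not pass (-0.09; limma, adjusted p = 0.721). Of the 47 rows for fatty acid synthesis and thioesterases, 5 rose, 7 fell and 35 did not pass, beside 23.3% of all genes called. A ketoacyl-ACP synthase III row (DN35058_c0_g2), which starts chain growth, rose to 15.7 ± 5.44 TPM in cold calli against 3.35 ± 0.463 TPM in control calli (1.87; limma, adjusted p = 0.00118). A biotin carboxylase row (DN20686_c1_g1), part of acetyl-CoA carboxylase, fell to 11.9 ± 2.75 TPM in cold calli, against 24.9 ± 5.71 TPM in control calli (-1.0; limma, adjusted p = 0.00899).

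Downstream, 2 of 3 omega-3 desaturase rows rose, beside 11.3% of all genes called higher. Both had a plastid FAD7 hit. DN23548_c0_g2 averaged 7.58 ± 5.29 TPM in cold and 1.14 ± 0.512 TPM in control calli (1.74; limma, adjusted p = 0.00605), and DN23548_c0_g1 27.5 ± 8.12 TPM in cold and 19.6 ± 4.43 TPM in control calli (0.46; limma, adjusted p = 0.0436). Of 5 other membrane desaturases, 2 rose and 2 fell, beside 23.3% of all genes called. The clearest was a delta-8 desaturase row, DN31778_c1_g3, whose hit (sld1) acts on the long-chain base of sphingolipids, with 163 ± 72.9 TPM in cold and 35.6 ± 10.6 TPM in control calli (2.06; limma, adjusted p = 0.00071). A FAD4 row, whose Arabidopsis counterpart acts on plastid phosphatidylglycerol, also rose (DN19673_c1_g2, 2.51; limma, adjusted p = 0.00232), while another FAD4 row (DN34196_c0_g2, -0.75) and a sphingolipid delta-4 desaturase row (DN22689_c0_g1, -1.11) fell.

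Among 28 rows matched as cytochrome b5 or its reductases, 3 rose and 2 fell, beside 23.3% of all genes called. This word match also took in 9 rows of cytochrome b561, a different protein, and the largest rise (DN25750_c0_g1, 1.72) and fall (DN20563_c1_g6, -1.90) were b561 rows. The most abundant cytochrome b5 row, DN30160_c1_g1, averaged 115 ± 34.6 TPM in cold and 143 ± 46.9 TPM in control calli (-0.30; limma, adjusted p = 0.367). Of 58 rows for phosphatidylcholine exchange and acyl transfer, which supply and use the substrate of FAD2, 4 rose, 9 fell and 45 did not pass, beside the same 23.3% of all genes. An aminoalcohol phosphotransferase row (DN31336_c0_g2, AAPT1 hit), of the last step of phosphatidylcholine synthesis, fell to 13.8 ± 5.51 TPM in cold calli, against 29.4 ± 7.46 TPM in control calli (-1.09; limma, adjusted p = 0.00593). A LACS6 row (DN28271_c0_g1), a peroxisomal acyl-CoA synthetase, rose (1.48; limma, adjusted p = 0.00267). Another LACS6 row, DN35291_c1_g1, was the most abundant of the list and did not pass (-0.41; limma, adjusted p = 0.0889). The largest fall of the list was a LACS9 row (DN29936_c0_g1, -1.18; limma, adjusted p = 0.00186).

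Of 14 tested rows for storage oil, 1 rose and 5 fell, beside 11.3% of all genes called higher and 12% lower. DGAT1 (DN15589_c2_g1) rose to 27.0 ± 3.30 TPM in cold calli against 16.4 ± 3.78 TPM in control calli (0.70; limma, adjusted p = 0.0095). PDAT1 (DN21426_c1_g1), which takes the acyl group from phospholipid, fell to 31.2 ± 11.7 TPM in cold calli, against 57.5 ± 20.8 TPM in control calli (-0.87; limma, adjusted p = 0.0429), and DGAT2 (DN29001_c1_g5) fell as well (-0.85; limma, adjusted p = 0.0238). The median log2 differences of these lists lay between -0.26 and 0.46, beside -0.05 for all genes.

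Some regulators of embryogenic callus were matched by name, which does not establish the identity of the tissue. The 13 rows for regulators of embryogenic callus summed to 482 to 714 TPM in cold and 489 to 1038 TPM in control libraries, with WOX8 the most abundant (294 ± 91.2 TPM in cold and 389 ± 248 TPM in control calli). A row with a SERK2 hit rose (0.98; limma, adjusted p = 0.0398) and a row with a SERK1 hit fell (-0.50; limma, adjusted p = 0.0467). The protein annotation of the SERK1 row named a BRASSINOSTEROID INSENSITIVE 1-associated receptor kinase 1-like protein. Of the 13 rows, 2 rose, 1 fell and 10 did not pass, beside 23.3% of all genes called. No rows named LEC1, LEC2, FUS3 or BBM were matched. Xylem markers (15 rows) summed to 139 to 287 TPM in cold and 145 to 241 TPM in control libraries, with 1 higher and 2 lower. Epidermis and cuticle markers (15 rows) summed to 238 to 354 TPM in cold and 246 to 544 TPM in control libraries, with 3 higher and 1 lower. Over all genes, 11.3% were called higher and 12% lower. The summed ranges of the 3 lists overlapped between the arms, and their part in the results on the desaturase rows was not tested.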

How the data were processed

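The authors deposited TPM values per assembled gene. No header states this unit, which was inferred from the column sums of 873298 to 929555. Cutadapt, FastQC, Salmon and edgeR are named, per the submitters' processing notes, without roles or versions. The Trinity identifiers belong to an assembly made from reads, per the file headers. No read counts are held, so depth and its precision are unknown.

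Genes that reached 1 TPM in 2 or more libraries were tested (44600 of 44953). The scale was log2(TPM + 1), which understates changes of low genes. A limma 3.58.1 fit (R 4.3.3, with version 1.17.8 of data.table) with a variance trend covered the 6 groups, and p-values were adjusted by Benjamini-Hochberg over all genes tested. Sums, shares and correlations carry no test. Replicate numbers were not used as pairs in the main fit, since the labels do not say what a number marks. In simulated libraries of 44600 genes, the mean effect recovered 20% of 2-fold and 68% of 4-fold changes, with 5 false among 93 calls. Daily tests recovered 0% of 2-fold changes, and of 4-fold changes 9% at day 2, 8% at day 4 and 10% at day 6. Far fewer genes were changed in the simulation than the 23.3% called for the mean effect in the data. The adjusted threshold was therefore stricter there, so these rates do not carry over to the data.

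Members and lists were chosen with earlier results of these data known. Every member with a highest value of at least 5 TPM is named. Of each list, the 2 largest rises, the 2 largest falls and the most abundant row were eligible. Plots used matplotlib 3.10.9 under python 3.11.15. Alternatives were other pseudocounts, filters and scalings, the replicate block, sums by Swiss-Prot hit, single days and libraries left out.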

Additional observations from a re-analysis of the deposited data

Results flagged for a closer look

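In the cold or the control arm of 6 libraries, the gap between an extreme library and its neighbour was divided by the range of the arm on the log2(TPM + 1) scale and set against Dixon's critical value. Chance passes it in about 1 of 20 sets, and 5 of the 96 sets of the 48 rows passed. DN35604_c2_g4, the longest row, did so in both arms. Its cold d2r3 library was low (7.62 TPM, gap 0.747 of the range), as was control d2r1 (12.7 TPM, 0.682). The chloroplastic row DN29908_c1_g4 was high in cold d2r3 (11.4 TPM, 0.649), which is also the value of its class, since it is the only row in it. DN34643_c0_g5 was high in control d2r3 (3.37 TPM, 0.691). DN17483_c1_g2 was listed at 0 in every cold library except cold d2r1 (0.62 TPM, a gap of 1 times the range). On the TPM scale 34 of 96 sets passed, 16 through control d6r2 and 10 through cold d2r1.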

How the results depend on the processing

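The 11 calls for the mean effect became 6 of the 37 rows tested with a filter of 5 TPM in 6 libraries (26.8% of all genes called) and 6 (2 rises, 4 falls) without cold d2r1 and control d6r2 (13.4%). When rows were summed by Swiss-Prot hit, 2 of the 8 sums passed, and both were hits of a single row (DN19595_c0_g2 and DN21743_c1_g2), so no sum of several rows did. The calls became 8, all rises, without cold d2r3 and cold d6r3 (18.8%), and 15, all rises, without day 6 (14.8%). The log2 differences of the 3 abundant falls ran from -1.09 to -0.96 in the first of these fits and from -1.02 to -0.79 in the second. These 3 omissions were added after seeing the data. Leaving out single libraries gave 3 to 15 calls for the mean, 0 to 2 at day 2, 0 to 3 at day 4, 0 to 3 at day 6, 0 to 2 for change over days in cold, and a log2 ratio of sums from -0.7082 to -0.2565. At day 6, rows passed without control d2r1, control d2r3 or control d6r3, all of them as falls. Over all genes, the number called at day 6 was higher without either control day 2 library and lower without control d6r3. The numbers of all genes called moved in the other fits as well, and each fit leaves a single library in a group.

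The single call at day 2 and the single call for change over days in cold were the same row, DN34643_c0_g5. Both counts became 0 with a pseudocount of 0.1 TPM, the replicate block, sums by hit, and either pair of libraries left out, and also with the stricter filter, which did not test that row. With only the 4 libraries of the day, day 2 had 0 calls (0% of all genes) and day 4 had 1 (1.91%), and sums by hit left 1 at day 4, a hit of a single row. With the replicate block the mean effect had 15 calls (8 rises, 7 falls; 19.2% of all genes), day 4 had 3 (4.94%) and day 6 had 0 (0.137%). With the group mean removed, correlations of same-numbered samples ran from -0.458 to 0.234. In a group of 2 libraries these deviations mirror each other, so the values cannot decide whether the numbers pair samples. The interaction and the change over days in control had 0 calls in every fit run.

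Summing rows by hit turned the sign of 18 rows, which then took the value of their sum: -0.6011 for DN24277_c0_g3, DN17423_c0_g4, DN14770_c0_g1, DN23062_c1_g4, DN19595_c0_g1, DN27778_c0_g2, DN24611_c0_g4, DN34643_c0_g5, DN14770_c0_g2, DN14928_c0_g3 and DN17423_c0_g7 (tung tree FAD2), 0.0126 for DN17423_c0_g3, DN26830_c0_g2, DN14770_c0_g5, DN34643_c0_g4 and DN34643_c0_g6 (pot marigold FAD2), and -0.5899 for DN35604_c1_g1 and DN24611_c0_g2 (soybean isozyme 2). None of these sums passed (limma, adjusted p = 0.169, 0.988 and 0.21).

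Without cold d2r1 and control d6r2 the sign turned in DN17423_c1_g1 (0.0882), DN14770_c0_g4 (0.1563), DN35604_c1_g1 (-0.0205) and DN34643_c0_g4 (0.1366). Without cold d2r3 and cold d6r3 it turned in DN34643_c0_g3 (0.5546), DN17423_c1_g1 (0.3671), DN14770_c0_g4 (0.6519), DN34643_c0_g6 (0.3979) and DN35604_c2_g4 (0.0461). Without day 6 it turned in DN34643_c0_g3 (1.2072), DN24611_c0_g1 (0.2778), DN17423_c1_g1 (1.1699), DN17423_c0_g3 (0.1083), DN21743_c1_g1 (0.2758), DN26830_c0_g2 (0.0972), DN14770_c0_g4 (1.9067), DN34643_c0_g4 (0.5675), DN23638_c0_g2 (0.1976), DN34643_c0_g6 (0.6957) and DN34643_c0_g1 (0.1019). When single libraries were left out, the sign turned in 9 uncalled rows, with ranges from -0.2746 to 0.5501 for DN14770_c0_g1, -0.4423 to 0.8463 for DN23062_c1_g4, -0.3645 to 0.2539 for DN34643_c0_g3, -0.8586 to 0.4009 for DN17423_c1_g1, -0.0246 to 0.2989 for DN27778_c0_g2, -0.1762 to 1.0644 for DN24611_c0_g4, -0.9071 to 0.6218 for DN14770_c0_g4, -0.7948 to 0.2653 for DN34643_c0_g6 and -0.6085 to 0.0806 for DN35604_c2_g4. Of the rows whose sign turned when libraries were left out, none was called with all 12. The causes were not tested. Depth is unknown, so what it limits cannot be stated.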
